A study of Mus musculus with 2 samples.

Results

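Acute phase and antimicrobial secreted proteins were followed through 10 genes in mouse breast tumour tissue: Saa3, Slpi, Lcn2, Hp, Orm1, Ptx3, Lbp, Wfdc2, Wfdc17 and Chil3. All 10 were found by symbol among the 35602 gene symbols of the count table. The mice of one group received acupuncture together with an intraperitoneally injected PD-1 inhibitor, and those of the other group received the same injection alone. PD-1 is an inhibitory receptor on T cells. The sources used here give neither strain, age and tumour line nor the number of animals behind a library. Each group was 1 messenger RNA library, so no difference below has a replicate check and every interval covers counting error only. The libraries held 60752043 counts with acupuncture and 105728292 with the PD-1 inhibitor alone. A level is given in CPM, counts per 1000000 of a library size scaled by TMM, which assumes that most genes are equal. The 10 genes were chosen with results of these same libraries known. Their levels in both libraries are therefore a description, with no test.

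Acute phase proteins are secreted in larger or smaller amounts during inflammation. The liver makes most of those in blood, under interleukin 6, interleukin 1 and the factors STAT3, NF-kB and C/EBP. Fat, epithelium, macrophages and neutrophils make some of them locally, Saa3 and Lcn2 among them in the mouse. Several act on microbes directly. Lipocalin 2 withholds bacterial iron carriers, LBP hands lipopolysaccharide to CD14, and proteins with WAP domains, such as SLPI, block the proteases of neutrophils.

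The 10 genes did not share 1 direction. Among genes whose counts summed to 20 or more, by the rule of an at least 2-fold difference with a 95% counting interval excluding 1, Hp and Orm1 were higher with acupuncture, Slpi, Saa3, Lcn2 and Wfdc2 were lower, and Lbp, Wfdc17, Ptx3 and Chil3 lay between. That is 2 higher, 4 lower and 4 between, where 9.21% of all 18687 genes tested were higher and 4.9% lower. These shares describe the background only, because the genes were picked from the same contrast. The median log2 ratio, acupuncture over PD-1 inhibitor alone, of the 10 genes was -0.51, and that of all genes tested was 0.0003. The scaling matters to such counts: when the median of a list of 19 mammary and tumour epithelial genes was set to 0 instead, 3694 genes were higher and 349 lower, against 1721 and 916 under TMM. Summed over the 10 genes, counts made up 0.18% of the acupuncture library and 0.206% of the library with the PD-1 inhibitor alone. The make-up of that sum differed more than its size: Hp supplied 52.8% of it with acupuncture and 8.71% with the PD-1 inhibitor alone, whereas Slpi supplied 11.2% with acupuncture and 38.2% with the PD-1 inhibitor alone.

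**Figure D1:**
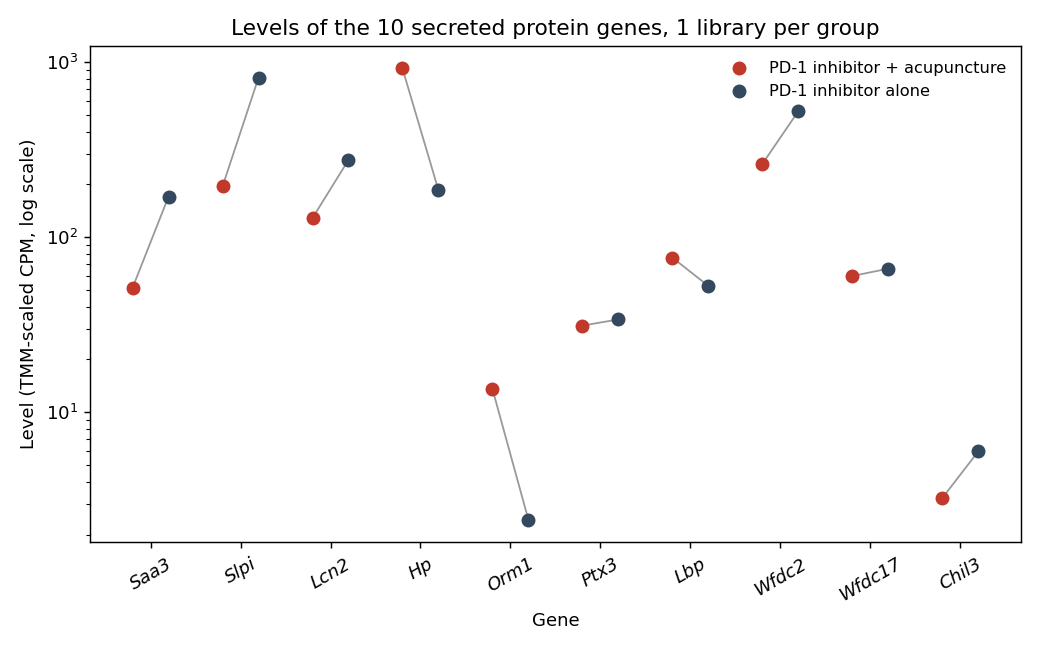
Level of each of the 10 genes in CPM on TMM-scaled library sizes (vertical log axis), with 1 point per library, acupuncture on the left of each pair and the PD-1 inhibitor alone on the right. Hp and Orm1 slope down to the right and Slpi, Saa3, Lcn2 and Wfdc2 slope up.

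**Figure D2:**
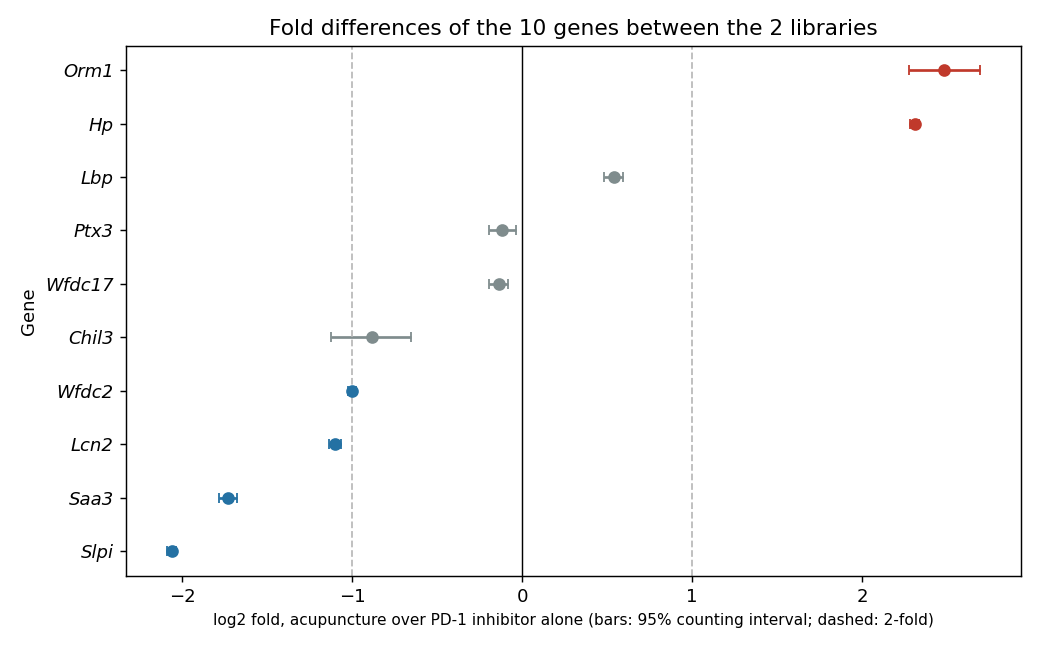
Log2 fold of each gene, acupuncture over PD-1 inhibitor alone (horizontal axis), with bars for the 95% counting interval and dashed lines at 2-fold; red marks genes higher, blue genes lower and grey genes between. Wfdc2 sits on the 2-fold line, and the interval of Chil3 crosses it.

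The start regions of the 4 lower genes are shown because they stood lower together, with Ptx3 as a gene of near-equal level. They are the 250 bases before the start site from RefSeq (GRCm38.p6), at chr7:46715677-46715926 (minus strand) for Saa3, chr2:164356508-164356757 (minus strand) for Slpi, chr2:32387740-32387989 (minus strand) for Lcn2, chr2:164562465-164562714 (plus strand) for Wfdc2 and chr3:66219637-66219886 (plus strand) for Ptx3. Capitals mark matches on either strand to the C/EBP letters TTGCNNAA and, in Slpi alone among these 5, to the HIF letters ACGTG, which occur there on both strands as CACGTG. Wfdc2 held no match.
Saa3: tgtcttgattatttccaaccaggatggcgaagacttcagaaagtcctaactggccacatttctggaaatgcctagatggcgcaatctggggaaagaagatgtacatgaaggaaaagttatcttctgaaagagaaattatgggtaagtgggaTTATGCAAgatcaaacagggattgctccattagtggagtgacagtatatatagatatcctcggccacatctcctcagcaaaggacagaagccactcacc
Slpi: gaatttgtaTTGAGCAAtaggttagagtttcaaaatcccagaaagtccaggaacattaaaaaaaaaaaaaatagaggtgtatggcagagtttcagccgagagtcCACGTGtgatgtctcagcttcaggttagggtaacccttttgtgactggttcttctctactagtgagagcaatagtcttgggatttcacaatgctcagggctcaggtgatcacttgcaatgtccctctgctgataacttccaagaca
Lcn2: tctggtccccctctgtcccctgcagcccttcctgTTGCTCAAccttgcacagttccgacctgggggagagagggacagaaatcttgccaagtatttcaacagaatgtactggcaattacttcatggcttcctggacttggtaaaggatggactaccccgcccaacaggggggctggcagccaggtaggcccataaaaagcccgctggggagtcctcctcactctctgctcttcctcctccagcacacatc
Wfdc2: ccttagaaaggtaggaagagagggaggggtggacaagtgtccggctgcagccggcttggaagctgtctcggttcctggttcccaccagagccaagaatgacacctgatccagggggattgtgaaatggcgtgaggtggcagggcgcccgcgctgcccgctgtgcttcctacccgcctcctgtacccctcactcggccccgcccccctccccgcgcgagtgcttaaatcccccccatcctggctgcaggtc
Ptx3: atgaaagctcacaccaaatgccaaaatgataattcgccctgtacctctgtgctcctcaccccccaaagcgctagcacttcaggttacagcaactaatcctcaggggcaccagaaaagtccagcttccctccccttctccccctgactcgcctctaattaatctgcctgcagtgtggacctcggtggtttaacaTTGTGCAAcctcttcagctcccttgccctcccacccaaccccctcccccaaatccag

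A start region was found for 7 of the 10 genes and was searched from 250 bases before to 50 after the start. Hp, Orm1 and Lbp had no entry. The C/EBP letters occurred in 4 of the 7, those of Saa3, Slpi, Lcn2 and Ptx3, and in 10.8% of 27025 start regions, 1 per gene. So they stood in 3 of the 4 lower genes and also in Ptx3, whose level differed little. The STAT letters TTCNNNGAA occurred in Chil3 alone (8.47% of all start regions), the letters searched for NF-kB in none of the 7 (1.62%), the HIF letters in Slpi alone (19.7%) and the letters TATAAA in Chil3 and Wfdc17 (14.2%). A match says only that these letters are present.

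Among the acute phase proteins, Saa3, the serum amyloid A that mouse fat, macrophages and epithelium make outside the liver, was lower with acupuncture. It had 3232 counts, or 51.4 CPM, with acupuncture, against 17398 counts, or 170.4 CPM, with the PD-1 inhibitor alone. The level was 3.32-fold lower (95% counting interval 3.2 to 3.45), the 292nd lowest ratio of the 18687 genes. The other inducible serum amyloids were lower as well. Saa2 had 129 counts with acupuncture and 569 with the PD-1 inhibitor alone, 2.72-fold lower (2.24 to 3.32), and Saa1 had 114 and 391 counts in the same order, 2.11-fold lower (1.71 to 2.63). Under total count scaling the log2 ratio of Saa1 was -0.97, and with the epithelial median set to 0 that of Saa1 was -0.51 and that of Saa2 -0.88, all short of the limit. Saa4, the constitutive form, had 24 counts with acupuncture and 28 with the PD-1 inhibitor alone, too few to separate the libraries (fold 1.39, 0.772 to 2.49). Of the 50-base stretches of the Saa3 transcript, 1.78% also occurred in Saa1 and 0% in Saa2, so few stretches of that length could be assigned to either copy. Of those of the Saa1 transcript, 9.11% occurred in Saa2, so the split of reads between Saa1 and Saa2 is less certain.

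Haptoglobin, Hp, which binds free haemoglobin and is made by liver, fat and myeloid cells, differed in the opposite direction. It had 57770 counts, or 918 CPM, with acupuncture, against 18933 counts, or 185 CPM, with the PD-1 inhibitor alone. That is 4.95-fold higher with acupuncture (4.87 to 5.03). Hp was the 88th most abundant symbol in the acupuncture library and the 1018th in the library with the PD-1 inhibitor alone. Inflamed fat of the mouse makes both haptoglobin and Saa3. The acupuncture library held 17.9 counts of Hp for each count of Saa3 and the library with the PD-1 inhibitor alone held 1.09. Hemopexin, Hpx, the haem carrier that complements haptoglobin, had 185 counts with acupuncture and 257 with the PD-1 inhibitor alone, and its fold of 1.17 had an interval that included 1 (0.962 to 1.42).

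Orm1, alpha-1-acid glycoprotein, a lipid- and drug-binding plasma protein, shared the direction of Hp at a far lower level. It had 854 counts, or 13.6 CPM, with acupuncture, and 248 counts, or 2.43 CPM, with the PD-1 inhibitor alone. The difference was 5.59-fold (4.85 to 6.46), the 370th highest ratio of all genes tested, against the 438th for Hp. Its copies did not follow to that extent, with Orm3 at 66 counts with acupuncture and 83 with the PD-1 inhibitor alone (fold 1.29, 0.919 to 1.8) and Orm2 at 32 and 46 in the same order (fold 1.13, 0.696 to 1.81). Of the 50-base stretches of the Orm1 transcript, 20.4% occurred in Orm2 as well, so the split of reads between these copies is uncertain.

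Lbp, the lipopolysaccharide-binding protein, had 4803 counts (76.3 CPM) with acupuncture and 5371 counts (52.6 CPM) with the PD-1 inhibitor alone. Its level was 1.45-fold higher (1.4 to 1.51), larger than counting error and short of the 2-fold limit. Ptx3, the long pentraxin that stromal and myeloid cells secrete to mark microbes, stood at 31.2 CPM with acupuncture and 33.9 CPM with the PD-1 inhibitor alone, a fold of 0.922 (0.872 to 0.975). The partners that bring lipopolysaccharide from Lbp to its receptor did not share its direction throughout. Cd14 had 54.7 CPM with acupuncture and 91.6 CPM with the PD-1 inhibitor alone (fold 0.597, 0.574 to 0.621), while the receptor Tlr4 had 46.4 CPM with acupuncture and 44.3 CPM with the PD-1 inhibitor alone (fold 1.05, 0.998 to 1.1). Over all genes tested 9.21% were higher and 4.9% lower. Of 5 tested genes in the family of Lbp, 1 was higher, 2 were lower and 2 lay between. The 3 that passed the limit had few counts. Bpifb5, the higher one, had 20 counts with acupuncture and 0 with the PD-1 inhibitor alone. Bpifb1 had 7 and 76 and Bpifb4 3 and 23 in the same order. Pltp, the phospholipid transfer protein, had 6230 counts with acupuncture and 8153 with the PD-1 inhibitor alone (fold 1.24, 1.2 to 1.28). Tnfaip6, a hyaluronan-binding partner of PTX3, was 2.27-fold higher with acupuncture (2.11 to 2.44).

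Lcn2, lipocalin 2, is stored in neutrophil granules and also made by inflamed epithelium and fat. It had 8085 counts, or 128 CPM, with acupuncture, against 28154 counts, or 276 CPM, with the PD-1 inhibitor alone. The level was 2.15-fold lower with acupuncture (2.09 to 2.2). Of the other proteins stored in neutrophil granules and named here, Ngp, Mmp8 and Mmp9 were lower. Ltf, Camp, Elane and Ctsg lay between, and so did Mpo (fold 1.78), Prtn3 (fold 0.861) and Pglyrp1 (fold 0.721). Lactoferrin, Ltf, had 343 counts with acupuncture and 543 with the PD-1 inhibitor alone (fold 1.02, 0.893 to 1.18), and Camp had 9 and 26 in the same order (fold 0.562, 0.232 to 1.24), both with intervals that included 1. Ngp had 19 counts with acupuncture and 195 with the PD-1 inhibitor alone (6.33-fold lower, 3.94 to 10.7), and the granule collagenase Mmp8 had 28 and 482 in the same order (10.6-fold lower, 7.25 to 16.1). Mmp9, the protease that lipocalin 2 binds and stabilises, was 2.48-fold lower with acupuncture (2.42 to 2.55), at a log2 ratio of -1.31 and, with the epithelial median set to 0, of -0.75, short of the limit. Over a list of other antimicrobial proteins, 1 of 16 tested genes was higher, 5 were lower and 10 lay between. The shares over all genes tested were 9.21% and 4.9%. The median log2 ratio of the list was -0.20. With the epithelial median set to 0, 3 were higher and 5 lower, around 0.35, against 3694 and 349 of all genes tested. The most abundant gene of the list, the macrophage lysozyme Lyz2, had 884.5 CPM with acupuncture and 864.2 CPM with the PD-1 inhibitor alone. No other lipocalin of the Lcn series had a combined count of 20 or more.

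The genes with WAP domains held the lowest ratio of the 10. Slpi, the secretory inhibitor of neutrophil elastase and cathepsin G, had 12258 counts, or 195 CPM, with acupuncture, against 83090 counts, or 814 CPM, with the PD-1 inhibitor alone. The level was 4.18-fold lower (4.1 to 4.26), the 191st lowest ratio of all genes tested. Slpi was the 866th most abundant symbol with acupuncture and the 141st with the PD-1 inhibitor alone. The RNA of its target proteases was near the limit of detection. Elane had 8 counts with acupuncture and 13 with the PD-1 inhibitor alone, and Ctsg 17 and 16 in the same order. The protease proteins were not measured.

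Wfdc2, known in humans as the epithelial secretory protein HE4, had 16456 counts (262 CPM) with acupuncture and 53423 counts (523 CPM) with the PD-1 inhibitor alone. It lay on the limit of the rule, 2.0-fold lower with an interval from 1.97 to 2.04, and Chil3 was the next of the 10 genes outside it. Under total count scaling its log2 ratio was -0.90, short of the limit. Wfdc17, expressed by activated mouse macrophages and microglia, had 60.0 CPM with acupuncture and 66.0 CPM with the PD-1 inhibitor alone (fold 0.908, 0.873 to 0.945). Of the 21 symbols taken as this family, 8 reached a combined count of 20, with 4 lower, 1 higher and 3 between. Over all genes tested 4.9% were lower and 9.21% higher. The lower ones besides Slpi and Wfdc2 were Wfdc18, at 11 counts with acupuncture and 176 with the PD-1 inhibitor alone (9.86-fold lower, 5.38 to 20.1), and Wfdc12, at 3 and 36 counts in the same order (7.4-fold lower, 2.34 to 37.5). Wfdc1 was the higher one, at 91 counts with acupuncture and 15 with the PD-1 inhibitor alone (9.84-fold, 5.67 to 18.3). The nearest tested protein-coding genes on each side of Slpi and Wfdc2 in RefSeq order were compared, with genes of fewer counts skipped. Of these only the relative Wfdc12 passed the limit, in the same direction. Pigt was lower as well, short of the limit. Beside Slpi stood Wfdc12 and Matn4 (fold 0.909, 0.551 to 1.47). Beside Wfdc2 stood Pigt (1.67-fold lower with acupuncture, 1.62 to 1.72) and the relative Wfdc3 (fold 1.05, 0.444 to 2.38).

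Chil3, also called Ym1, is a chitinase-like protein without chitinase activity, typical of alternatively activated macrophages in the mouse. It had 203 counts, or 3.23 CPM, with acupuncture, and 609 counts, or 5.97 CPM, with the PD-1 inhibitor alone. It was 1.85-fold lower with acupuncture (1.57 to 2.18), so its counting interval reached across the 2-fold limit. Chil1, a chitinase-like protein of macrophages and epithelium, was lower with 44 counts with acupuncture and 322 with the PD-1 inhibitor alone (4.51-fold, 3.28 to 6.33), whereas Chil5 had 19 counts with acupuncture and 6 with the PD-1 inhibitor alone (5.14-fold higher, 1.97 to 15.7). Of the 50-base stretches of Chil3, 18.5% occur in Chil4, which had 0 counts in both libraries.

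**Figure D3:**
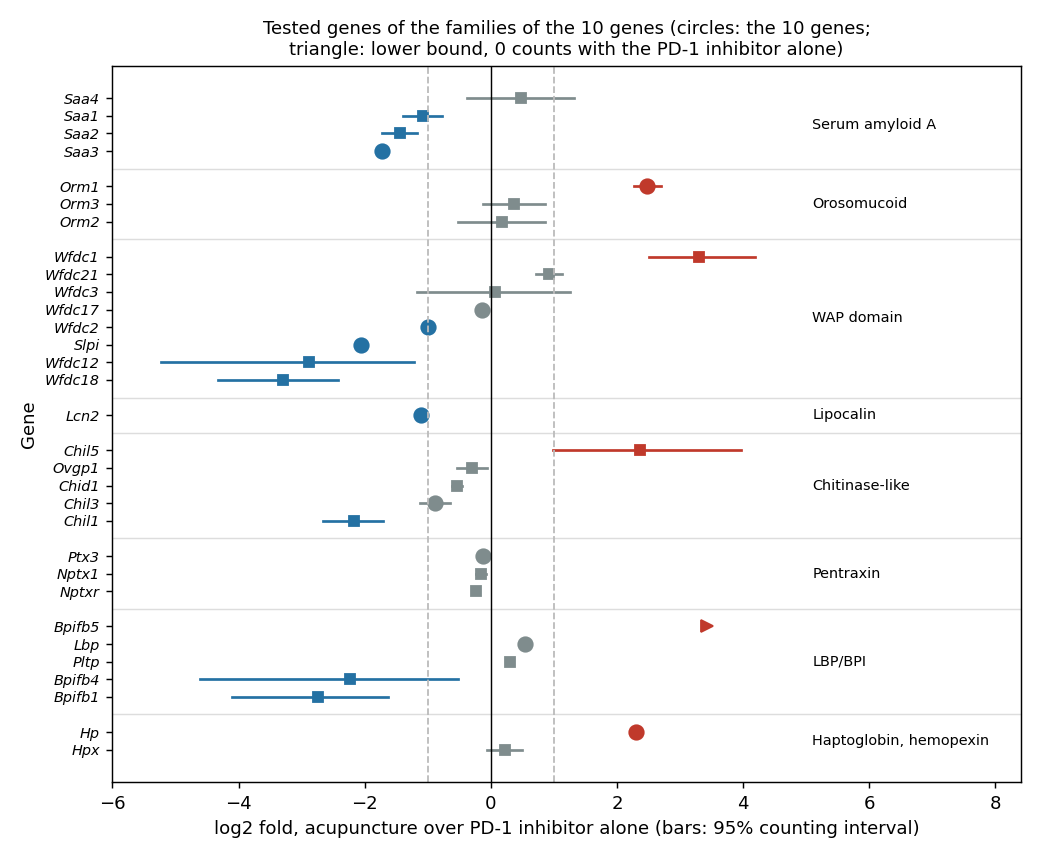
Log2 fold, acupuncture over PD-1 inhibitor alone (horizontal axis), of every gene with a combined count of at least 20 in the families of the 10 genes, with bars for the 95% counting interval, red for higher, blue for lower and grey for between. Saa1, Saa2 and Saa3 lie left of 0, Orm1 lies right of Orm2 and Orm3, and the WAP domain genes spread from Wfdc18 to Wfdc1; the triangle of Bpifb5 is the lower bound for 20 counts against 0.

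Compared per length, the order of the 10 genes differed between the libraries. In CPM per 1000 bases of the principal transcript, Hp led with acupuncture at 683, ahead of Wfdc2 at 308 and Slpi at 222. With the PD-1 inhibitor alone Slpi led at 929, ahead of Wfdc2 at 616, Saa3 at 307 and Lcn2 at 301, and Hp stood behind these 4 at 138. Orm1, Ptx3 and Chil3 took the last 3 places in both libraries, at 17.5, 16.4 and 2.1 with acupuncture and at 3.13, 17.8 and 3.88 with the PD-1 inhibitor alone. The transcript lengths are from GENCODE M21 and not from the annotation that the authors counted on.

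Other acute phase genes differed in both directions too under TMM, where 9.21% of all genes tested were higher and 4.9% lower. Of 25 listed, 22 were tested, of which 8 were higher, 3 lower and 11 between. The median over this list was 0.44 on the log2 scale. With the epithelial median set to 0, 11 were higher and 1, A2m, was lower, around 0.98, against 3694 and 349 of all genes tested. The most abundant, complement C3 and ceruloplasmin, Cp, differed little: C3 had 620.5 CPM with acupuncture and 539.7 CPM with the PD-1 inhibitor alone (fold 1.15), and Cp had 405.6 and 566 CPM in the same order (fold 0.717). The largest ratios were those of the inter-alpha-trypsin inhibitor heavy chains. Itih4 had 4300 counts with acupuncture and 170 with the PD-1 inhibitor alone (41.0-fold higher, 35.2 to 48.1), and Itih3 had 97 and 11 in the same order (14.3-fold, 7.65 to 29.6). The lower ones were Saa1, Saa2 and the protease inhibitor A2m, which had 52 counts with acupuncture and 479 with the PD-1 inhibitor alone (5.68-fold lower, 4.26 to 7.71). The classical liver proteins Crp and Apcs had 0 counts in both libraries.

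The cytokines that induce these genes and their receptors mostly lay between, as did 16050 of all 18687 genes tested. Among all genes tested 9.21% were higher and 4.9% lower. Of 22 tested ligands and receptors of the inducing pathways, 2 were higher, 2 lower and 18 between. The median over this list was -0.15 on the log2 scale and 0.39 with the epithelial median set to 0. Il6 itself had 567 counts (9.01 CPM) with acupuncture and 311 counts (3.05 CPM) with the PD-1 inhibitor alone, 2.96-fold higher (2.57 to 3.41). Il1a had 184 counts (2.92 CPM) with acupuncture and 1096 counts (10.7 CPM) with the PD-1 inhibitor alone, 3.67-fold lower (3.14 to 4.32). Il1b lay between, at 51.6 CPM with acupuncture and 85.5 CPM with the PD-1 inhibitor alone (fold 0.603, 0.579 to 0.628). Tnf (fold 1.47, 1.04 to 2.07) and Osm (fold 0.703, 0.635 to 0.778) lay between too. The library with the lower Saa3, Lcn2 and Slpi had the higher Il6 and the lower Il1a. The part of any cytokine in the levels of Saa3, Lcn2 and Slpi was not tested. The shared receptor chain Il6st differed little (fold 1.12, 1.1 to 1.15). Il1rn, the interleukin 1 antagonist that is itself an acute phase product, was 2.12-fold lower with acupuncture (1.97 to 2.28). Its log2 ratio was -0.98 under total count scaling and -0.52 with the epithelial median set to 0, both short of the limit. Ifng was 18.1-fold higher (10.6 to 33.0).

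Of 21 tested transcription factors and feedback regulators of the acute phase, none was higher, 1 was lower and 20 lay between. Most genes did so, with 16050 of all 18687 genes tested between, 9.21% higher and 4.9% lower. The median over this list was -0.09 on the log2 scale, 0.01 under total count scaling and 0.47 with the epithelial median set to 0. The lower one was Zc3h12a, an RNase that degrades inflammatory messages such as that of Il6, at 12.7 CPM with acupuncture and 28.1 CPM with the PD-1 inhibitor alone (2.21-fold lower, 2.04 to 2.39). With the epithelial median set to 0 its log2 ratio was -0.58, short of the limit, and 1 gene of the list, Jak1, was higher and 0 were lower. Stat3 was 1.33-fold lower (1.3 to 1.35), Cebpb 1.61-fold lower (1.57 to 1.65), and Socs3, a STAT3 target, stood at a fold of 0.943 (0.914 to 0.973). Among all genes tested 9.21% were higher and 4.9% lower. Of 25 tested receptors and binding partners, 2 were higher, 1 was lower and 22 lay between, around a median of 0.05. With the epithelial median set to 0, 4 were higher and 0 lower, around 0.61, against 3694 and 349 of all genes tested. The scavenger receptor Cd36, which also takes up fatty acids in fat, was 4.53-fold higher with acupuncture (4.36 to 4.71). Cd163, the macrophage receptor that takes up haptoglobin bound to haemoglobin, had 76.2 CPM with acupuncture and 141 CPM with the PD-1 inhibitor alone (fold 0.539, 0.522 to 0.557), opposite in direction to Hp.

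Markers of several cell types differed between the same libraries, and in bulk tissue fewer cells of a type and less RNA per cell cannot be told apart. Over all genes tested 9.21% were higher and 4.9% lower. Of 20 adipocyte genes 18 were higher with acupuncture and none lower. Their median was 2.13 on the log2 scale, and their summed level was 4621 CPM with acupuncture and 1204 CPM with the PD-1 inhibitor alone. The log2 ratio of Hp was 2.31 and that of Orm1 2.47, each above 17 of the 20 adipocyte genes and below the other 3. The fatty acid carrier Fabp4 was 4.87-fold higher (4.78 to 4.95), close to Hp in size. Saa3, Lcn2 and Slpi, which fat can also make, had log2 ratios of -1.73, -1.10 and -2.06, below every one of the 20. The part of fat content in the levels of Hp and Orm1 was not tested.

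Hepatocyte markers ranged from 0 counts to levels well above 0. Albumin, Alb, had 42 counts (0.668 CPM) with acupuncture and 19 counts (0.186 CPM) with the PD-1 inhibitor alone. Apoa1 had 0 counts with acupuncture and 2 with the PD-1 inhibitor alone, and transthyretin, Ttr, had 0 in both. The most abundant of the list, the cytochrome Cyp2e1, had 1169 counts (18.6 CPM) with acupuncture and 2650 counts (26.0 CPM) with the PD-1 inhibitor alone (fold 0.716, 0.668 to 0.767). The whole list of 14 had 10 tested genes, of which 4 were higher and none lower. The shares over all genes tested were 9.21% higher and 4.9% lower. The list summed to 44.9 CPM with acupuncture and 30.5 CPM with the PD-1 inhibitor alone. Serpina1b, an antitrypsin that liver makes in bulk, was 7.01-fold higher (6.13 to 8.05), with reads that its close copies may share. Fgb, Hamp, Serpina1a and Serpina1b stand both in this list and among the other acute phase genes. Red cell genes were higher as well, 4 of 6 tested, and none was lower, with the globin Hbb-bs at 252 CPM with acupuncture and 97.8 CPM with the PD-1 inhibitor alone. Lymph node and skeletal muscle markers were higher in all 12 and all 12 genes tested, at medians of 6.37 and 3.01 on the log2 scale. Of 8 brown adipocyte genes 7 were higher. Hp and Orm1 lay inside the ranges of several of these lists too. Each was above 7 and below 3 of the hepatocyte genes, and above 2 and below 6 of the brown adipocyte genes. Each was above 1 and below 11 of the lymph node genes. Of the 12 muscle genes, 1 lay below Hp and 3 below Orm1. The part of liver, blood, lymph node or muscle content in the levels of the 10 genes was not tested.

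The counts in the next lists stand beside 9.21% higher and 4.9% lower over all genes tested. Of 22 neutrophil genes 13 were lower with acupuncture and none higher. Their median was -1.34 on the log2 scale, and they summed to 398 CPM with acupuncture and 875 CPM with the PD-1 inhibitor alone. The most abundant of them, Padi4, lay between, at 208 CPM with acupuncture and 255 CPM with the PD-1 inhibitor alone (fold 0.813, 0.796 to 0.83). Mmp9 came next, at 125 and 310 CPM in the same order. The calprotectin subunits differed most, S100a9 being 35.2-fold lower (30.6 to 40.7) and S100a8 31.1-fold lower (25.3 to 38.7). With the epithelial median set to 0, 9 were lower and 1 higher, around -0.78, against 349 and 3694 of all genes tested. All of the 10 genes except Hp and Orm1 lay inside the range of that list, which was wide. Slpi had 7 of its 22 genes below it, Saa3 8, Lcn2 12, Wfdc2 and Chil3 13 each, Ptx3 and Wfdc17 19 each and Lbp 21. Epithelial genes had 6 of 19 lower and none higher, a median of -0.56, and a summed level of 3224 CPM with acupuncture and 4634 CPM with the PD-1 inhibitor alone. Of the 19 epithelial genes, 4 lay below Slpi and Saa3 each, 6 below Lcn2 and Wfdc2 each and 7 below Chil3. With the epithelial median set to 0, the log2 ratios were -1.50 for Slpi and -1.17 for Saa3, still past 2-fold, and -0.54 for Lcn2 and -0.44 for Wfdc2, no longer past it. Macrophage genes had 2 higher, 4 lower and 14 between, around a median of -0.30, against 2 higher, 2 lower and 0.26 with the epithelial median set to 0. Monocyte genes had 3 higher, 1 lower and 10 between, against 5 higher and 0 lower with that setting. Among 15 fibroblast genes 2 were higher and 13 lay between, around a median of 0.22, against 6 higher and 0.78 with that setting. The part of neutrophil, epithelial or macrophage content in the levels of the 10 genes was not tested.

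**Figure D4:**
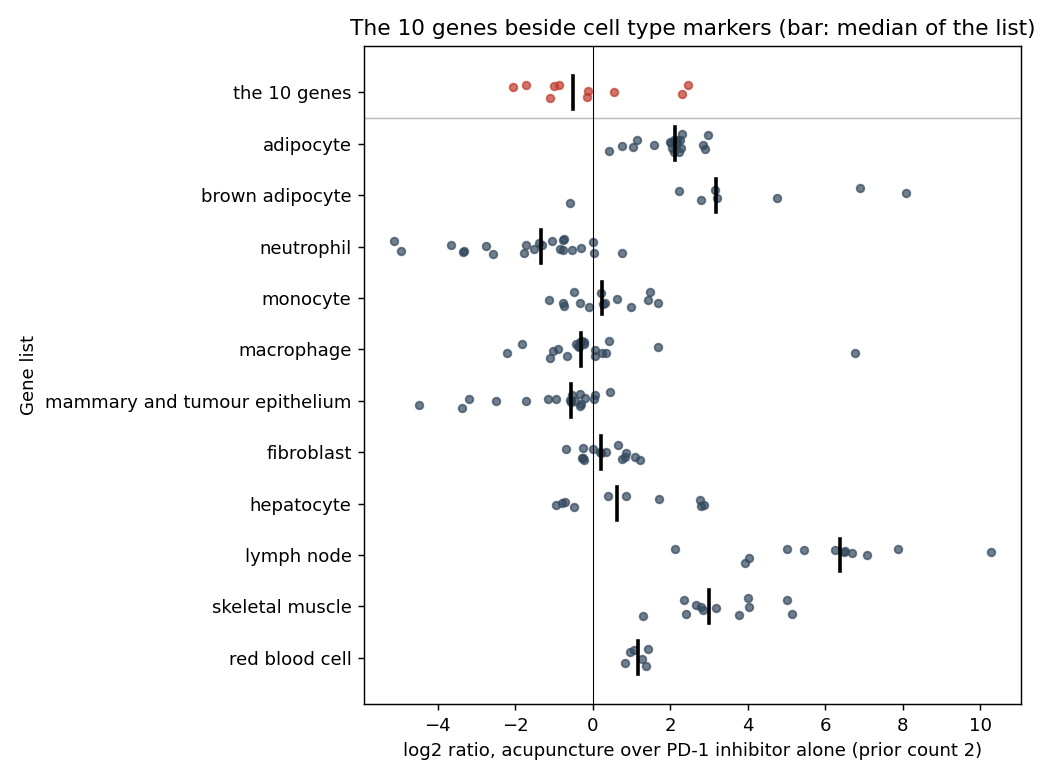
Log2 ratio, acupuncture over PD-1 inhibitor alone with a prior count of 2 (horizontal axis), of the 10 genes (top, red) and of the tested genes of 11 marker lists, with 1 point per gene and a bar at each list's median. Adipocyte markers cluster near 2.13, and Hp and Orm1 lie among them. Both genes also lie inside the ranges of the brown adipocyte, hepatocyte, lymph node, skeletal muscle and macrophage lists. Neutrophil and epithelial markers lie mostly left of 0.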

How the data were processed

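The authors deposited raw counts, whole numbers of reads for every gene symbol and library, per the file headers. A column kit served for extraction and a SMARTer kit for messenger RNA libraries, per the labels' protocols. The submitters' processing notes name GRCm39 and mm39 as builds. The aligner, counting program and strand setting were not given in the sources used here.

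Library sizes were scaled by TMM factors (edgeR 4.0.16, R 4.3.3) over genes reaching 20 counts in both libraries together, which were 1.04 with acupuncture and 0.966 with the PD-1 inhibitor alone. CPM are counts per 1000000 of these sizes. Folds divide the acupuncture level by the level with the PD-1 inhibitor alone, and their 95% intervals are exact (Clopper-Pearson). Log2 ratios carry a prior count of 2. With 0 counts in 1 library the fold is a bound against a floor of 3 counts in that library. Without molecular identifiers reads are not independent molecules, and intervals cover counting error only. No test between groups was possible and no p-value was computed.

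The members and lists were chosen with earlier results of these data known. All 10 genes were described, and of each list up to 4 genes by abundance (the highest mean CPM) or size (the largest log2 ratio at a combined count of at least 100). Other genes that the text names within the lists, such as Il6, Cd163, Ltf and A2m, were chosen for their known link to one of the 10 genes or after their values were seen. In small families any tested gene could be named. Some genes stand in more than 1 list, so the counts of the lists are not separate observations. S100a8, S100a9 and Mpo stand among both the antimicrobial and the neutrophil genes. Mmp9 stands among the neutrophil genes and Cd36 among the adipocyte genes, and both among the receptors and binding partners. Scaling, count minimum, prior count and fold limit were varied. DESeq2 1.42.0 gave size factors as an alternative. The calculation was tested on simulated data in Python 3.11.15 (scipy 1.17.1). Protein sequences were not used here.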

Additional observations from a re-analysis of the deposited data

How the results depend on the processing

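Hp and Orm1 remained higher, and Slpi and Saa3 lower, under each scaling tried, with log2 ratios of 2.29 to 2.87 for Hp, 2.45 to 3.03 for Orm1, -2.08 to -1.50 for Slpi and -1.75 to -1.17 for Saa3. Of the 10 genes 2 were higher under each alternative except the epithelial scaling, where Lbp joined them at 1.10. Wfdc2 left the lower group at -0.90 under total counts and under totals without the 10 most abundant genes of either library, at -0.98 under upper quartile scaling and at -0.44 under the epithelial scaling, so 3 genes were lower under the first 3 of these. With the median of the epithelial list set to 0 the lower group was 2 genes, Lcn2 stood at -0.54, and Ptx3 and Wfdc17 turned positive at 0.44 and 0.42. A 4-fold limit left 1 lower gene, Slpi. Without Slpi the summed share of the 10 genes was 0.16% with acupuncture and 0.127% with the PD-1 inhibitor alone, the reverse order of the sums with it. Total counts raised the median log2 ratio of all genes tested to 0.10 and the epithelial scaling raised it to 0.56, where 3694 genes were higher and 349 lower, against 1721 and 916 under TMM. A combined count of at least 100 left 1055 higher and 500 lower, a 4-fold limit 678 and 262, and a 1.5-fold limit 2679 and 1933. Among the listed genes named, total counts, with or without the 10 most abundant genes, left Saa1 and Il1rn short of 2-fold, and the epithelial scaling did so for these and for Saa2, Mmp9 and Zc3h12a. TMM over all symbols was added after the data were seen and moved none of the 10 genes across the limit. No paired analysis was possible because each group has 1 library. Genes with few counts, such as Camp, Elane and Wfdc12, could not be told apart from smaller or larger differences at this depth.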
